A study of Mus musculus with 8 samples.

Results

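Legumain (Lgmn), 8 lysosomal cathepsins (Ctsb, Ctsc, Ctsd, Ctsh, Ctsk, Ctsl, Ctss and Ctsz) and cystatin C (Cst3), a secreted inhibitor of most of them, were followed in primary mammary tumours and matched spine metastases of the mouse. Members were taken by gene name: every probe set whose only gene symbol in the platform annotation is 1 of these 10 genes. This gave 20 probe sets of the 34945 with a single symbol, and 10 genes of 18193. Lgmn was chosen by its large fall between the same arrays, so its values are a description and carry no test. The other 9 genes were taken as its family and its inhibitor, with earlier results of these data known.

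The 4T1.2 line is a mouse mammary carcinoma line, a clone of 4T1, that forms bone metastases when it grows in the mammary gland of immunocompetent Balb/c mice. There were 2 groups of 4 arrays: primary tumours growing in the mammary gland, and spine metastases. Each mouse gave 1 array to each group, so that the numbers 1 to 4 stand for the same 4 mice in both. Both groups were tumour epithelial cells isolated from Balb/c tissue, as far as the labels say, and neither the method of isolation nor the age of the mice is given in the sources used here. All values below are log2 signals, as deposited, and every fold is a difference of log2 means, metastasis minus primary.

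Lysosomal cathepsins break down proteins at acid pH. Cathepsins B, L, S, K, C, H and Z are cysteine proteases of the papain family, and cathepsin D is an aspartic protease. Legumain cuts after asparagine and trims cathepsins B, H and L into their mature chains. Cystatin C, a small secreted protein, blocks the papain-type cathepsins and, through a separate surface, legumain. In tumours these enzymes are made by carcinoma cells and abundantly by macrophages, and in bone cathepsin K is the collagenase of osteoclasts.

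The promoters of many lysosomal genes hold a palindromic site for TFEB and its relatives, the transcription factors that switch on lysosomal genes. The 250 bases before each annotated start were taken from RefSeq (GRCm38.p6). Windows were found for 8 of the 10 genes, and there were 9 of them because Lgmn has 2 starts. The motif CACGTG, which reads the same on both strands, was present in 3 of the 9 windows, those of Ctsd, Ctsl and the second Lgmn start, against 6.02% of 32851 windows of the same length. The longer TCACGTGA, which contains it, was present in 1 of the 9, that of Ctsd, against 0.785% of all windows. Shown here are both Lgmn windows, since this gene was chosen for its fall, and the 2 other windows with a match. They run 5′ to 3′ on the strand of the gene, with CACGTG in capitals.
Lgmn, chr12:102439729-102439978, minus strand: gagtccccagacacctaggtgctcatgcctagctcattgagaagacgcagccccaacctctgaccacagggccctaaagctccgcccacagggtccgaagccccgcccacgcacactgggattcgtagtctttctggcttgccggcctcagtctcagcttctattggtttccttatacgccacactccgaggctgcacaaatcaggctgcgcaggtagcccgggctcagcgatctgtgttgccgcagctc
Lgmn, second start, chr12:102439093-102439342, minus strand: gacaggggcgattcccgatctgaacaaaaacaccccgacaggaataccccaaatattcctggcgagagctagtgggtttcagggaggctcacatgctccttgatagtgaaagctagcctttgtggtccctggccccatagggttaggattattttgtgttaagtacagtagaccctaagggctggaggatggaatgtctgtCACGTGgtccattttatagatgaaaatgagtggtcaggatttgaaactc
Ctsd, chr7:142387828-142388077, minus strand: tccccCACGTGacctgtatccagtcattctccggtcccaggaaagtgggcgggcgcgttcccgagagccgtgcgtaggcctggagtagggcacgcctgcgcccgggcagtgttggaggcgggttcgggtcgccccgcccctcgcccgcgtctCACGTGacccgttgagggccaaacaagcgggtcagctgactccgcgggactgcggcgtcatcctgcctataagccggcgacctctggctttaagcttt
Ctsl, chr13:64370521-64370770, minus strand: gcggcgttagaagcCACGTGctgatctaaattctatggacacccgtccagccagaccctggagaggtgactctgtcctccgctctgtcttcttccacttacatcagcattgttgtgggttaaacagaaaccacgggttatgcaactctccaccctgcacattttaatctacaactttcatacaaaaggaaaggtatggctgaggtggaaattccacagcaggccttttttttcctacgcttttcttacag
The first base of the motif lay 49 bases before the second Lgmn start, 245 and 98 bases before that of Ctsd, and 236 bases before that of Ctsl. The windows of Ctsc, Ctsk, Ctss, Ctsz and Cst3 held no match. A match is only a match of letters, and binding was not measured.

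The arrays differed in ways that touch every result here. The drop in signal from the 3′ to the 5′ control probe set of actin, which grows as RNA or labelled copies shorten, was 1.90, 1.85, 1.14 and 1.08 on primary arrays 1 to 4 and 4.85, 4.55, 5.72 and 6.18 on metastasis arrays 1 to 4 (two-sided exact permutation p = 0.0286, the smallest that 4 against 4 arrays allow). The mean log2 signal of 13 measured macrophage markers was 10.87 to 11.87 on primary and 8.10 to 9.86 on metastasis arrays. Of these markers, 11 passed the test as lower and 0 as higher (6 lower without mouse 3 and 7 without mouse 4). At an unadjusted p under 0.05 in limma, 12 were lower and 0 higher. None of these 13 lay under the array median in either group, although the labels name epithelial cells. Of 12 epithelial markers, 1 lay under the array median in primary tumours and 3 in metastases, and their mean was 7.67 to 8.48 and 6.09 to 7.70, with 2 lower and 0 higher (6 and 0 at an unadjusted p under 0.05; 1 lower without mouse 2, mouse 4 or metastasis replicates 1 and 3, and 4 without metastasis replicate 4). Of 10 neutrophil markers 6 rose and of 9 B lineage markers 6 rose, with 0 lower in each list by limma, also at an unadjusted p under 0.05. Calls among the other lists were 3 lower and 1 higher of 12 osteoclast markers, 1 and 1 of 6 dendritic, 0 and 1 of 8 T and NK cell, 1 and 2 of 9 fibroblast, and 0 and 1 of 5 osteoblast markers. For all marker lists, the share to set beside these counts is 12.0% of 18193 genes called lower and 9.93% higher. The macrophage and fibroblast list means lay above 7.42 on every array. Among the 8736 probe sets with a mean signal above 7.42, 23.4% were called lower, a nearer share for the falls in these lists. The T and NK cell and osteoblast lists also held 0 lower genes at an unadjusted p under 0.05. In bulk samples fewer cells of a type and less RNA per cell cannot be told apart, and the part of cell makeup in the folds below was not tested.

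Most of the cathepsins were lower in bone metastases, by amounts that ran from 1.89-fold for Ctss to 9.24-fold for Ctsz among the brightest probe sets that passed the test, while Ctsk, Cst3 and the brightest probe set of Ctsh did not pass it. Of the 19 probe sets other than that of Lgmn, 14 fell (limma, Benjamini-Hochberg adjusted p under 0.05 over 34945 probe sets), 5 were not called and 0 rose, also at an unadjusted p under 0.05. Across all probe sets 11.9% were called lower and 8.72% higher. By the brightest probe set of each gene, 6 of 9 genes fell, Ctsb, Ctsc, Ctsd, Ctsl, Ctss and Ctsz, against 12.0% of 18193 genes called lower and 9.93% higher. The median log2 fold of all 9 was -1.15, against 0.09 over all genes, and it was -2.44 with the most variable probe set of each gene. Bright probe sets fell more often than dim ones: among the 8736 probe sets with a mean signal above 7.42, a group set after the values were seen, 23.4% were called lower and the median fold was -0.39. Of the members' probe sets other than that of Lgmn, 16 lay in that group and 12 of these fell. All 4 metastasis arrays lay below all 4 primary arrays in 14 of the 19 probe sets and in 14.0% of all probe sets.

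These counts depended on which mice were in the fit. Without mouse 3 the calls dropped from 14 to 6 probe sets and from 6 genes to 1, and without mouse 4 to 8 probe sets and 2 genes. Calls in the whole table dropped as well, from 4168 lower probe sets to 1285 and 1887. Metastasis replicates 1 and 3 had a low signal of keratin 8, an epithelial marker (Krt8, 7.34 and 9.80, against 12.39 and 12.97 in metastases 2 and 4). Without them, a fit chosen after seeing the data, there were 8 probe sets and 1 gene, and without primary replicate 4 there were 3 genes. With the actin drop as a covariate, which is nearly tied to the group, 0 of the 34945 probe sets passed by limma, and 4552 of them, 2 of the members' 19 among these, had an unadjusted p under 0.05.

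**Figure D1:**
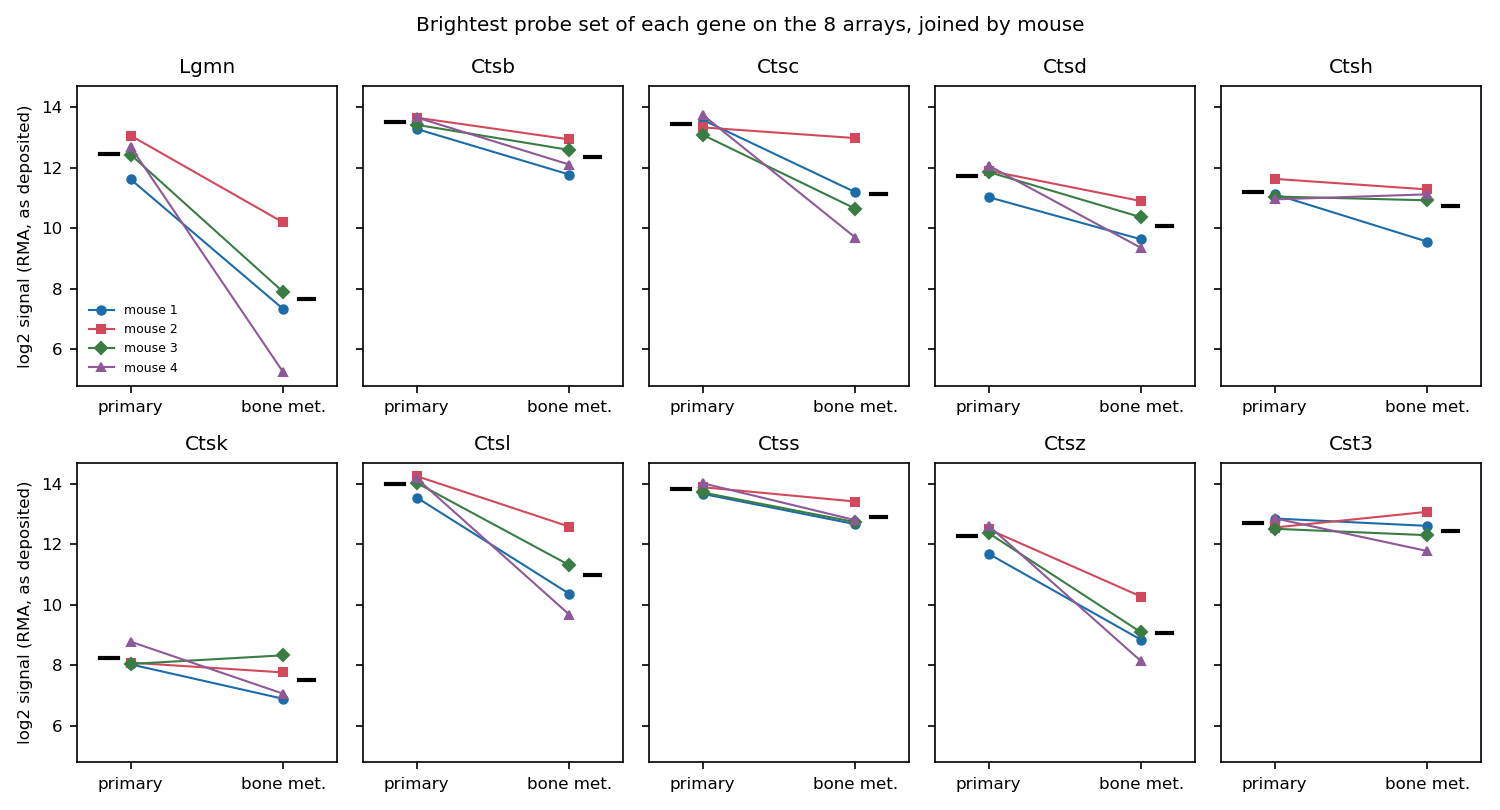
Log2 signal (RMA, as deposited) of the brightest probe set of each gene on the primary and bone metastasis arrays, with 1 line per mouse and a black bar for each group mean (n = 4). Lines fall steeply for Lgmn, Ctsl and Ctsz and stay nearly flat for Cst3, and the metastasis of mouse 2 is the highest of the 4 in every panel except Ctsk. Levels in different panels come from different probes and are not comparable.

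Legumain had 1 probe set, 1448883_at. Its log2 signal was 11.61, 13.06, 12.43 and 12.68 in primary tumours 1 to 4 and 7.33, 10.19, 7.89 and 5.24 in metastases 1 to 4. The groups did not overlap, and the metastases spread over a far wider range than the primary tumours. The means were 12.45 ± 0.61 and 7.66 ± 2.03 (SD, n = 4 each), a log2 fold of -4.79 with an SE of 0.90, or 27.6-fold lower. Within mice the difference was -4.29, -2.87, -4.54 and -7.45. Mouse 4 had the largest difference and mouse 2 the smallest. The signal of metastasis 4 lay under the median of its array, 5.42, so differences and folds that include it are not exact in size. The fold was -3.58 within mice 1 and 2 and -5.99 within mice 3 and 4. With the actin drop as a covariate it turned to 1.88 with an SE of 2.46, and the part of RNA length in the fall of Lgmn was not tested.

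The genes whose profile over the 8 arrays was most like that of Lgmn, by the root mean square difference after centring each profile on its own mean, were Rab20, a small GTPase of the endosome and phagosome (0.56), Sat1, which acetylates polyamines (0.58), the mannose receptor gene Mrc1 (0.64), the prostaglandin synthase gene Ptgs2 (0.66) and the adhesion molecule gene Vcam1 (0.68). Their log2 folds ran from -3.86 to -4.21. Each gene was taken by its brightest probe set. Among the cathepsins Ctsl (1.04) and Ctsz (1.07) were nearest, at ranks 26 and 30 of 18192 genes, and Ctsh (2.52) was farthest, at rank 4561. For Ctsh this place belongs to 1443814_x_at, with a log2 fold of -0.47. Its other probe set, 1418365_at, had a fold of -2.44 and was not ranked. Since Lgmn was chosen for this fall, large falls lead this ranking.

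Cathepsin L, an endopeptidase of the lysosome, was called lower on its bright probe set. 1451310_a_at gave 13.54, 14.25, 14.02 and 14.17 in primary tumours and 10.36, 12.58, 11.31 and 9.67 in metastases. Every metastasis lay below every primary tumour, and the metastases came in the same order as for Lgmn, with array 2 highest, then 3, 1 and 4. The log2 fold of Ctsl came to -3.02 (SE 0.55), or 8.09-fold lower (limma adjusted p = 0.00768), and the call was lost without mouse 3 (-3.12, adjusted p = 0.0588). A second probe set, 1457724_at, lay under the array median in both groups, with means of 4.32 and 4.39, so it gives no fold.

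Cathepsin B, which acts as endopeptidase and as dipeptidyl carboxypeptidase, had 5 probe sets that differed widely in the size of their fall. The brightest, 1417490_at, gave 13.28, 13.65, 13.42 and 13.66 in primary tumours and 11.77, 12.93, 12.59 and 12.10 in metastases. The groups were apart by 0.34. The log2 fold was -1.15 with an SE of 0.25 (limma adjusted p = 0.0151), with adjusted p of 0.0724 without mouse 3 (-1.26), 0.0983 without mouse 4 (-1.02) and 0.0523 without primary replicate 4 (-1.10). Probe sets 1417491_at, 1417492_at and 1448732_at fell too, with log2 folds of -1.89, -2.79 and -4.14 (SE 0.38, 0.44 and 0.45). The call of 1417491_at was lost without mouse 3 (limma adjusted p = 0.0629) and without mouse 4 (0.07). The steepest of these, 1448732_at, read 10.96, 11.52, 11.91 and 12.40 in primary tumours and 7.22, 8.74, 7.50 and 6.75 in metastases. The fifth, 1444987_at, had a fold of -0.73 (SE 0.51) and was not called (limma adjusted p = 0.335). The fold of Ctsb thus ranged over 3.42 log2 units between its probe sets, against a median range of 0.80 over the 9010 genes with more than 1 probe set. Where each probe set lies in its transcript was not determined here, so the part of the 3′ to 5′ drop in this spread was not tested.

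Cathepsin S, the endopeptidase that trims the invariant chain in antigen-presenting cells, had 1 probe set, 1448591_at. Its signal was 13.66, 13.88, 13.71 and 14.01 in primary tumours and 12.66, 13.41, 12.73 and 12.79 in metastases. It fell in all 4 mice with no overlap, but least of the called genes, by 0.92 on the log2 scale with an SE of 0.19 (limma adjusted p = 0.0125). The call was lost without mouse 3 (-0.90, adjusted p = 0.0821), without mouse 4 (-0.82, adjusted p = 0.0812) and after scaling the arrays to their 75th percentile (-0.61, adjusted p = 0.0711). The scaling moved the median fold of all probe sets from 0.09 to 0.40, and the split of calls from 4168 lower and 3046 higher to 3205 lower and 5676 higher.

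Cathepsin K was lower in 3 mice and higher in mouse 3. Its probe set, 1450652_at, read 8.03, 8.08, 8.04 and 8.78 in primary tumours and 6.89, 7.76, 8.33 and 7.06 in metastases. Metastasis 3 lay above 3 of the 4 primary tumours, so the groups overlapped. The log2 fold of -0.72 with an SE of 0.33 did not pass the test (limma adjusted p = 0.161). Other osteoclast markers did not move together. Acp5, the tartrate-resistant acid phosphatase, and Ocstamp, which takes part in osteoclast fusion, fell, with log2 folds of -2.89 (SE 0.42) and -2.15 (SE 0.33), as did Tcirg1, a proton pump subunit (-1.91). Itgb3, the integrin beta 3 chain, rose by 1.44, a call that was lost without mouse 2, 3 or 4, without primary replicates 2, 3 or 4, without metastasis replicate 3 and without metastasis replicates 1 and 3 together. These 4 are all the genes of the osteoclast list called on their brightest probe set. A dimmer probe set was called lower for Atp6v0d2 and for Tnfrsf11a, and the second probe set of Itgb3 was called higher. The calcitonin receptor gene Calcr and Oscar lay under the array median in both groups.

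Among the exopeptidases, cathepsin C, the dipeptidyl peptidase that activates granule serine proteases of neutrophils and T cells, fell on all 3 of its probe sets. The brightest, 1416382_at, gave 13.58, 13.33, 13.08 and 13.74 in primary tumours and 11.19, 12.98, 10.65 and 9.69 in metastases, where array 2 came within 0.11 of the lowest primary array. The log2 fold of Ctsc here came to -2.31 (SE 0.60; limma adjusted p = 0.0287). This call was lost in 8 of the 12 fits that left out an array or a mouse: without primary replicates 1 to 4 (adjusted p = 0.0682, 0.0665, 0.0615 and 0.0828), without metastasis replicate 3 (0.0743) and without mice 1, 3 and 4 (0.0951, 0.137 and 0.123), with folds from -1.73 to -2.43. The other 2 probe sets were dimmer. 1446834_at gave 8.42, 8.66, 8.50 and 8.61 in primary tumours against 4.99, 5.06, 5.54 and 4.60 in metastases, a log2 fold of -3.50 with an SE of 0.20 (limma adjusted p = 0.00013), and 1437939_s_at had a fold of -3.96 with an SE of 0.31. Both were called in all of these fits. Their metastasis means, 5.05 and 4.22, lay under the array median of 5.31, so the size of these folds is not exact, and a small spread at such dim signals does not show a steadier fall.

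Cathepsin Z, a carboxypeptidase, had 3 probe sets, and all of them fell. 1417868_a_at, the brightest, gave 11.68, 12.49, 12.36 and 12.61 in primary tumours and 8.84, 10.27, 9.08 and 8.13 in metastases. The groups were apart by 1.41, and the fold of -3.21 with an SE of 0.43 (limma adjusted p = 0.00216) passed in all 12 fits that left out an array or a mouse, where it ran from -2.78 to -3.60. The folds of 1417870_x_at and 1417869_s_at were -3.07 (SE 0.42) and -1.72 (SE 0.37). The last was no longer called without mouse 3 (-1.81, adjusted p = 0.0782) or mouse 4 (-1.65, adjusted p = 0.0811). The letters x and s in a probe set name mark probes that can also bind other transcripts.

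Cathepsin H, an aminopeptidase, gave different answers on its 2 probe sets. 1418365_at read 11.72, 11.95, 11.79 and 11.98 in primary tumours and 8.76, 10.77, 8.91 and 9.26 in metastases, with no overlap and a log2 fold of -2.44 with an SE of 0.40 (limma adjusted p = 0.0051, or 0.0507 without mouse 3, where the fold was -2.29). 1443814_x_at, whose x marks probes that can also bind other transcripts, has the higher mean over the 8 arrays. It read 11.12, 11.63, 11.05 and 10.95 in primary tumours and 9.55, 11.28, 10.92 and 11.12 in metastases, so that only metastasis 1 stood clearly below. Its fold of -0.47 (SE 0.37) was not called (limma adjusted p = 0.395), and it was -0.96 within mice 1 and 2 and 0.02 within mice 3 and 4. The call of Ctsh therefore rests on the probe set: it was called lower with the most variable probe set (-2.44) and with the mean of both (-1.45).

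Cathepsin D, the aspartic protease of the lysosome and the gene with 2 CACGTG matches in the window shown, had 1 probe set, 1448118_a_at. Its signal was 11.02, 11.90, 11.85 and 12.07 in primary tumours and 9.63, 10.89, 10.36 and 9.34 in metastases. The highest metastasis lay 0.13 below the lowest primary tumour. The log2 fold was -1.65 with an SE of 0.37, or 3.15-fold lower (limma adjusted p = 0.0162), and adjusted p was 0.0886 without mouse 3 (-1.71), 0.0925 without mouse 4 (-1.30), 0.0515 without primary replicate 3 (-1.61) and 0.0549 without primary replicate 4 (-1.54).

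**Figure D2:**
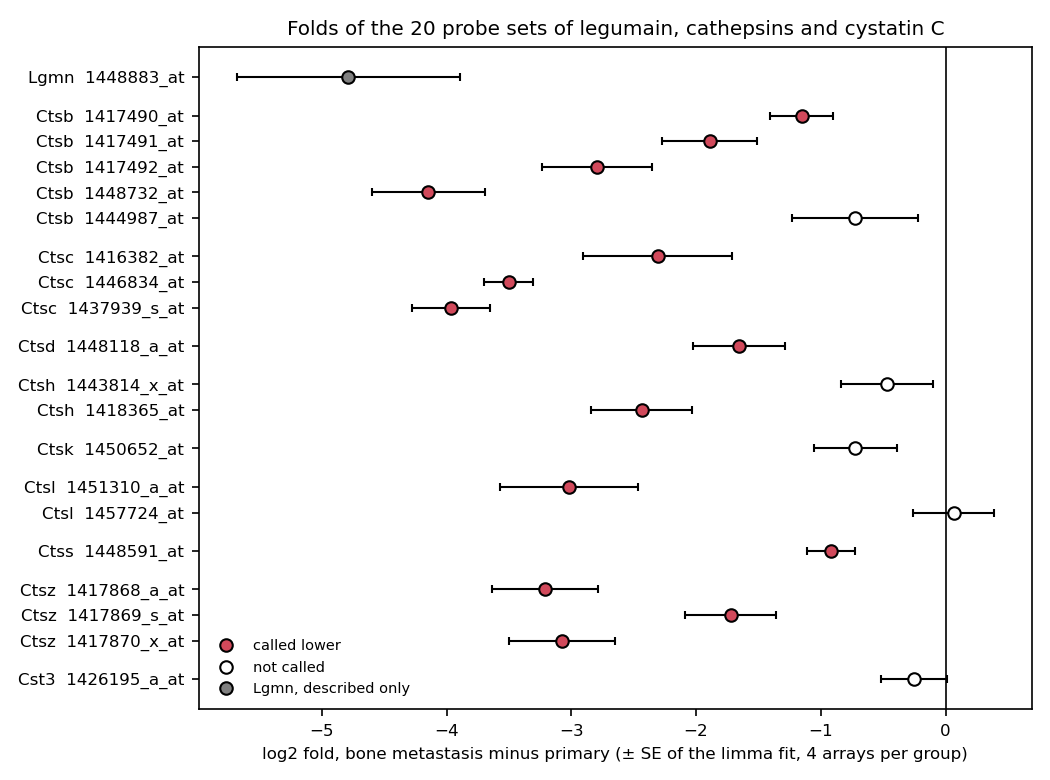
Log2 fold, metastasis minus primary, of all 20 probe sets with the SE of the limma fit (4 arrays per group). Red points were called lower, open points were not called, and the grey point is Lgmn, which was chosen for its fall and is described only. The probe sets of Ctsb spread from -0.73 to -4.14, and the open points of Cst3 and of the dim Ctsl probe set lie near 0.

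Cystatin C, the inhibitor, was the member nearest to no difference. Its probe set, 1426195_a_at, read 12.85, 12.55, 12.51 and 12.85 in primary tumours and 12.60, 13.07, 12.30 and 11.77 in metastases. The groups overlapped, with metastasis 2 above every primary tumour and metastasis 4 below all of them. The log2 fold was -0.25 with an SE of 0.26 (limma adjusted p = 0.516), 0.14 within mice 1 and 2 and -0.65 within mice 3 and 4, and it was 0.06 after scaling to the 75th percentile. A fold of this size and error leaves its direction unsettled. By the same measure of likeness, the profiles nearest to Cst3 were those of Tmem230 (0.07), Tinf2 (0.11), Vrk3 (0.11), Zfp617 (0.13) and Etv6 (0.15).

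Setting each protease against Cst3 on the same array removes any shift that both share. The level of this log2 difference has no meaning, since the probes differ, but its change between groups does not depend on the scaling of the arrays. For 5 of the 8 cathepsins all metastases lay below all primary tumours on this scale, as did 9.8% of all 18192 genes set against Cst3 in the same way. That share covers bright and dim genes, and the share among bright genes alone was not computed. For Ctsz the difference was -1.17, -0.06, -0.14 and -0.24 in primary tumours and -3.77, -2.80, -3.21 and -3.65 in metastases, a change of -2.95. Ctsl and Ctsc changed by -2.76 and -2.05, Ctsd by -1.40 and Ctsb by -0.90 on this scale. Ctsd is not of the papain type that cystatin C blocks. Lgmn, chosen for its fall and so not counted, changed by -4.53. Ctsh, Ctsk and Ctss overlapped between the groups, with changes of -0.21, -0.47 and -0.66. These values were not tested.

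**Figure D3:**
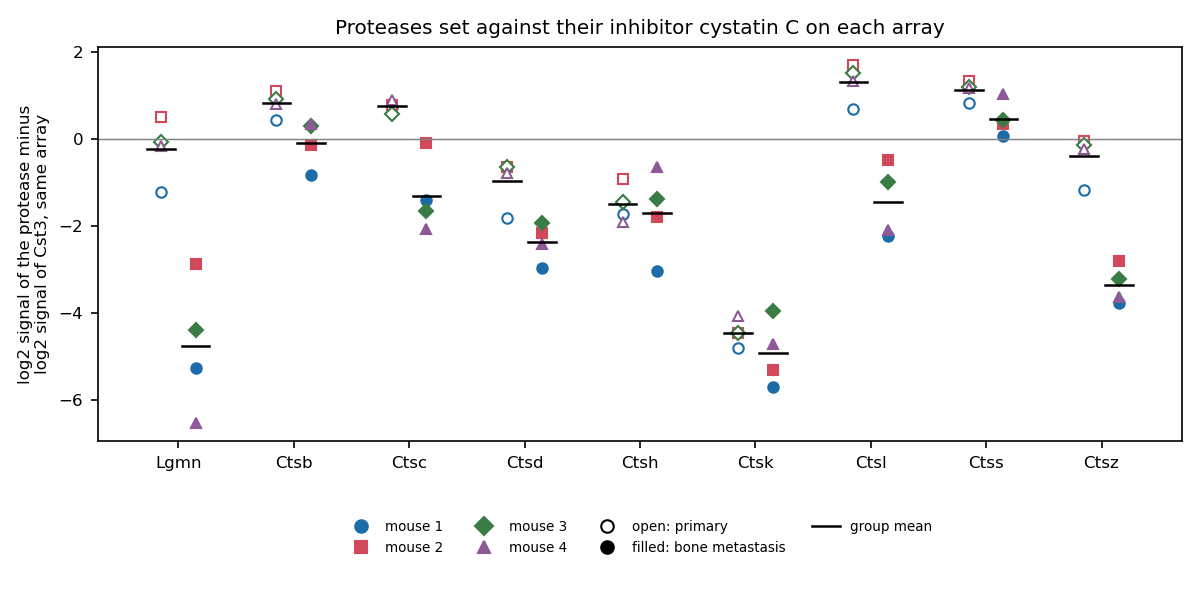
Log2 signal of each protease minus log2 signal of Cst3 on the same array, brightest probe set of each gene. Open symbols are primary tumours, filled symbols are bone metastases, symbol shape and colour mark the mouse and bars are group means (n = 4). Filled symbols lie below all open ones for Lgmn, Ctsb, Ctsc, Ctsd, Ctsl and Ctsz and overlap them for Ctsh, Ctsk and Ctss.

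Metastasis 2 was the highest of the 4 in 16 of the 20 probe sets, and it was the highest in 49.8% of the 4168 probe sets called lower in the whole table. The lowest place was shared between metastasis 4, in 11 probe sets, and metastasis 1, in 9, against 43.7% and 21.3% of all probe sets called lower. Against the primary mean, the median over the 20 probe sets was -2.56, -1.10, -2.08 and -2.58 on metastasis arrays 1 to 4. The macrophage markers had the same array on top, with a mean log2 signal of 8.10, 9.86, 9.01 and 8.67 on these arrays. Metastasis 2 was also the highest for the osteoclast, dendritic, neutrophil, T and NK cell and osteoblast lists. It was not the highest for the B lineage, fibroblast or epithelial lists. The actin drop was smallest on metastasis 2 (4.55) and largest on metastasis 4 (6.18). Among primary tumours, number 1 was the lowest in 16 of the 20 probe sets, and its macrophage mean was the lowest of the primary arrays, at 10.87. Its osteoclast and neutrophil means were also the lowest, at 7.19 and 6.78, and its actin drop was the largest, at 1.90. The means of the other marker lists were not lowest on primary array 1. The part of macrophage content and of RNA length in these differences was not tested.

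Of 91 other lysosomal genes measured in 7 lists, 27 fell, 7 rose and 57 were not called, with a median log2 fold of -0.59. Over all genes 12.0% were called lower and 9.93% higher. Among the probe sets with a mean signal above 7.42, 23.4% were called lower. The mean signals of the hydrolase, membrane, proton pump and other cathepsin lists lay above 7.42 on every array, so this higher share is the nearer one for them. The falls in the membrane list, 3 of 13, and in the proton pump list, 3 of 15, lay near it. The falls dropped to 9 without mouse 3, 12 without mouse 4, 17 without primary replicate 4 and 14 without metastasis replicates 1 and 3, and the rises to 1 and 3 without mice 3 and 4 and to 4 without mouse 2 or any single primary array.

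The soluble hydrolases, which digest lipids, sugars and proteins beside the cathepsins, made up most of the falls, with 15 of 33 lower and 0 higher by limma (22 and 1 at an unadjusted p under 0.05) and a median of -1.29. Asah1, the acid ceramidase, read 11.33, 11.60, 11.85 and 11.92 in primary tumours and 8.14, 9.94, 8.09 and 7.71 in metastases, a log2 fold of -3.20 with an SE of 0.45 (limma adjusted p = 0.00252). Manba, the beta-mannosidase, fell by 3.13 (SE 0.32). The list held 9 lower genes without metastasis replicates 1 and 3 and without primary replicate 3 or 4, and 7 without mouse 3 or mouse 4.

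Among genes of the lysosomal membrane 3 of 13 fell and 1 rose, with a median of -0.94. Npc1, the cholesterol exporter, and Laptm4a fell, with log2 folds of -2.16 (SE 0.47, with the metastasis mean of Npc1 under the array median) and -1.52 (SE 0.31), as did Lamp1 (-1.34), named after its value was seen. Laptm5, which is restricted to blood cells, rose by 0.76 (SE 0.14) on its brightest probe set. No other of its 5 probe sets was called, and 3 of them had folds of -0.57, -0.70 and -0.995. None of the 3 falls was called without mouse 3, without mouse 4 or without metastasis replicates 1 and 3, the rise was not called without mouse 3, and 6 genes fell without metastasis replicate 2. Of 15 subunits of the proton pump that acidifies the lysosome, 3 fell and 1 rose, with a median of -0.59. Atp6v1h and Atp6v1a fell, with log2 folds of -3.11 (SE 0.56) and -3.09 (SE 0.67), as did Atp6v1b2 (-1.46), named after its value was seen. The other probe sets of Atp6v1h were not called, while the second of Atp6v1a was called lower. Of the other probe sets of Atp6v1b2, 1 was called lower (-2.86) and 1, under the array median in both groups, higher (0.41). Atp6v0a1 rose by 0.96 (SE 0.29) on its brightest probe set, and its others were not called. The pump had 0 lower calls by limma without mouse 3, 1 without metastasis replicates 1 and 3, and 6 without metastasis replicate 2, and its rise was called in only 2 of the 12 fits that left out an array or a mouse, those without metastasis replicate 1 or mouse 1.

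Of 10 genes for sorting enzymes to the lysosome and for its transcriptional control, 3 fell and 0 rose by limma (6 and 1 at an unadjusted p under 0.05), with a median of -0.78. M6pr, a receptor for the mannose 6-phosphate tag, had a log2 fold of -2.44 (SE 0.62), and Gnptab, a subunit of the enzyme that adds the tag, one of -2.12 (SE 0.47). Gnptg, the third and also a subunit of that enzyme, was named after its value was seen, and it lay under the array median in both groups, so its fold is not read. Igf2r, the other receptor for the tag, and Nagpa, which uncovers it, had log2 folds of -0.09 and -0.53 and were not called. Without mouse 3 there was 1 call in this list, and without metastasis replicate 2 there were 5. None of the 4 transcription factor genes of the TFEB family in the list was called. Tfeb and Tfe3 had log2 folds of -0.09 and -0.05 (limma adjusted p = 0.778 and 0.87), Mitf had -1.43 (adjusted p = 0.115) and Tfec -2.18 (adjusted p = 0.0527), with the metastasis mean of Tfec under the array median.

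**Figure D4:**
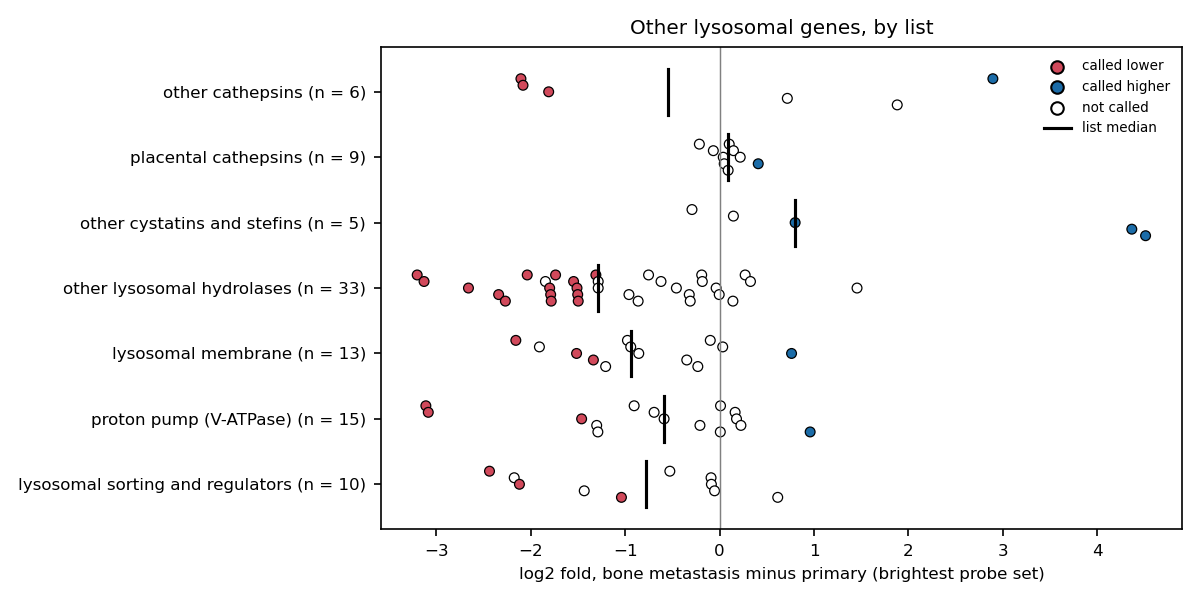
Log2 fold, metastasis minus primary, of the brightest probe set of each other lysosomal gene, by list, with the list median as a black line. Red points were called lower, blue points higher, and open points were not called. Soluble hydrolases lie mostly below 0 (median -1.29), and the rises among cystatins and stefins reach 4.51.

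Of 6 other cathepsins 3 fell and 1 rose. Ctso and Ctsa fell, with log2 folds of -2.10 (SE 0.51) and -2.08 (SE 0.35), as did Ctsf (-1.81), named after its value was seen. Each of these 3 genes has a second probe set, which was not called. Ctsg, a serine protease of neutrophil granules in spite of its name, read 5.53, 5.35, 5.68 and 5.32 in primary tumours and 8.07, 9.005, 7.89 and 8.50 in metastases, a log2 rise of 2.90 with an SE of 0.24 (limma adjusted p = 0.000458). Ctse and Ctsw were not called, but without metastasis replicate 3, and without replicates 1 and 3 together, this list had 3 rises. It had 1 fall without mouse 3 and without mouse 4. Of 5 other cystatins and stefins 3 rose and 0 fell, also at an unadjusted p under 0.05. Stfa3 and Stfa2l1, stefin A genes of the mouse, rose by 4.51 (SE 0.99) and 4.37 (SE 0.79), and Cst6, named after its value was seen, by 0.80. None of the 3 was called without mouse 3, and 1 was called without mouse 4. Stfa3 and Cst6 lay under the array median in primary tumours, so these folds are not exact, and the stefin A copies are alike enough that their probes may not tell them apart. Of 9 cathepsins of the rodent placenta, all under the array median in both groups, 1 was called higher by limma, Ctsr, and 0 lower, also at an unadjusted p under 0.05. The call of Ctsr was lost in 11 of the 12 fits that left out an array or a mouse.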

How the data were processed

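Labelled RNA of 8 samples was hybridised to 8 one-colour Affymetrix arrays after 2 rounds of amplification, per the labels' protocols. The authors deposited log2 values per probe set, and the submitters' processing notes name RMA. The RMA version and the genome build are not given in the sources used here. Every array median lay between 5.16 and 5.42. Of 45101 probe sets, 34945 have 1 gene symbol in the platform annotation, 932 have several and 9160 have none, with 64 control probe sets among the total. Only those with 1 symbol were used, and 34741 of these were found in the RefSeq gene table.

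Metastasis was compared with primary in limma 3.58.1 (R 4.3.3; lmFit and eBayes, two-sided) over all 34945 probe sets, with no block and no filter, and Benjamini-Hochberg adjustment at 0.05. For each gene the brightest probe set, by its mean signal, was used. Probe sets whose group mean lay under the mean array median of that group were called dim. The script was tested on simulated data with known changes. The number of arrays limits the precision. The members, gene lists and tests were chosen with earlier results of these data known. Named genes were all members with every probe set, and, of each other lysosomal list, the called genes with the largest change, at most 2 per direction. For Lgmn and for the member with the highest fold, the 5 genes with the most similar centred profile were named. Other named genes are marked in the text.

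Replicate numbers pair the samples because, per the series' design text, each mouse gave both. The correlation of same-numbered deviations from the group means, across probe sets, was 0.16, 0.00, 0.03 and -0.10 for mice 1 to 4. For arrays with different numbers it ran from -0.11 to 0.19. These values thus do not show the pairing, which rests on the design text. Alternatives were a replicate block, other scalings, a filter on dim probe sets, other ways to choose a gene's probe set, each array or mouse left out, the actin drop as a covariate and fits within pairs of mice.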

Additional observations from a re-analysis of the deposited data

Results flagged for a closer look

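In 3 of 40 groups of 4 arrays, 1 array stood far from the other 3, where chance gives about 1 in 20 groups. In primary tumours, Ctsc probe set 1437939_s_at was 7.46 on array 1, below the other arrays at 8.37 to 8.47. In metastases the same probe set was 4.99 on array 2, above the others at 3.91 to 4.00, all of them under the array median. Ctsk was 8.78 on primary array 4, above the others at 8.03 to 8.09.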

How the results depend on the processing

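The results were recomputed with 1 choice changed at a time. The replicate block, which pairs the arrays of a mouse, left 14 probe sets and 6 genes of the family lower and changed no call of a family gene. Leaving out 1 array or 1 mouse gave 6 to 14 lower probe sets, 1 to 6 lower genes, 9 to 40 lower and 1 to 9 higher other lysosomal genes. In these fits the fold ran from -0.51 to 0.0215 for Cst3 and from -0.24 to 0.34 for the dim Ctsl probe set. Without metastasis replicates 1 and 3, chosen after seeing the data, 8 probe sets and 1 gene of the family and 14 other lysosomal genes were lower, and the fold of Ctsh 1443814_x_at was 0.0123. With the most variable probe set of each gene 42 other lysosomal genes were lower. Scaling to the 75th percentile gave 11 higher other lysosomal genes and a Cst3 fold of 0.0593, and quantile normalization a fold of -0.0648 for the dim Ctsl probe set. Over all probe sets, calls were 4168 lower and 3046 higher, 3492 and 2265 with the replicate block, and 4047 and 2126 without dim probe sets.

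With the actin drop as a covariate all calls fell to 0, as the median SE rose from 0.21 to 0.70. Folds were then 1.88 for Lgmn, 0.12 and 0.31 for Ctsb 1417491_at and 1417492_at, 2.46 for Ctsc 1416382_at, 0.59 for Ctsd, 0.51 and -1.72 for Ctsl 1451310_a_at and 1457724_at, 0.046 for Ctsz 1417868_a_at and 1.72 for Cst3. List medians were 0.046 for the family without Lgmn, 1.25 for other cathepsins, -0.29 for placental cathepsins, 0.42 for hydrolases, 0.95 for membrane genes, 0.56 for the proton pump, 0.45 for sorting, -0.47 for T and NK cell and -0.0706 for fibroblast markers. The placental median was -0.0196 within mice 1 and 2 and has no value without dim probe sets. Where no value above shows it, the cause was not tested.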
